A study of Rattus norvegicus with 12 samples.

Results

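Interferon transcription factors and their receptor chains were followed in cultured neonatal rat cardiac fibroblasts after siRNA against Yap, Wwtr1 or both. The genes were chosen by symbol, as the type I interferon receptor chains Ifnar1 and Ifnar2, the STAT factors Stat2 and Stat3, and the IRF factors Irf1, Irf2, Irf3, Irf7 and Irf9. Of these 9 genes, 8 were measured among the 12271 genes of the count table, and the expression of Ifnar2 was not analysed here. The study compared 4 groups of 3 libraries each (12 in all), made from ventricular cells of Sprague Dawley rats at P2, that is 2 days of age. Negative siRNA cells received a pair of universal negative control siRNAs, Yap siRNA and Wwtr1 siRNA cells a pair of siRNAs against that gene, and Yap+Wwtr1 siRNA cells (the double knockdown) siRNAs against both. All groups shared the transfection reagent and siRNA at a stated 25 nM. The labels place collection 48 hours after transfection, whereas the methods place it 48 hours after a later change of medium. Titles and cell type labels name cardiac fibroblasts, whereas the design text speaks of cardiac myocytes. The siRNA label of the double knockdown libraries lists the Wwtr1 siRNAs alone, so that group was taken from the titles, and the total amount of siRNA in it is not given in the sources used here. Per the methods, the 3 replicates of a group came from separate litters, each a pool of hearts.

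Type I interferons bind a receptor made of Ifnar1 and Ifnar2, whose kinases Jak1 and Tyk2 phosphorylate STAT factors, Stat2 among them. Stat2 and Irf9 are subunits of ISGF3, the complex that binds the interferon-stimulated response element (ISRE) in front of antiviral genes. Irf3 and Irf7 switch on the interferon genes themselves after sensors of foreign nucleic acid have signalled, and Irf7 is in turn a target of ISGF3. Irf1 activates genes of antigen presentation, Irf2 competes with it for the same sites, and Stat3 carries the signals of interleukin 6 type cytokines. Yap and Wwtr1 (also called Taz) are transcriptional co-activators held in check by the Hippo kinases.

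The libraries held 33.9 to 41.1 M recovered reads, and double knockdown replicates 2 and 3 lay above 36.3 M, the highest total among the others. Values are given below as normalized counts, that is reads divided by a size factor of each library, and levels are compared within a gene only. The siRNA targets were checked first. Yap1 stood at 2984 to 3776 normalized counts in negative siRNA and at 532 to 625 in Yap siRNA libraries. In the double knockdown Yap1 stood at 713, 739 and 1474, the highest in replicate 3. Wwtr1 stood at 2280 to 2565 in negative siRNA, 524 to 637 in Wwtr1 siRNA and 731 to 1056 in double knockdown libraries. Every double knockdown library thus kept more of each target than the libraries of its single knockdown. The log2 difference was 0.67 for Yap1 (limma adjusted p = 0.0623) and 0.59 for Wwtr1 (adjusted p = 0.00804). Comparisons of the double with a single knockdown, and the interaction, therefore also hold a difference in depletion. All 11 fibroblast markers listed (among them Col1a1, Dcn and Pdgfra) were measured, and their summed level ran from 2686500 to 3888600 in the 12 libraries. Macrophage and leukocyte markers (9 of 10 measured) summed to 20544 to 30148 in negative siRNA, 18119 to 27090 in Yap siRNA, 11199 to 19044 in Wwtr1 siRNA and 6834 to 45574 in double knockdown libraries, so the Wwtr1 siRNA libraries lay below the negative siRNA libraries. Endothelial markers (8 of 8) summed to 796 to 1201 in negative siRNA, 1290 to 1536 in Yap siRNA, 1167 to 1270 in Wwtr1 siRNA and 1443 to 2345 in double knockdown libraries, so the Yap siRNA and double knockdown libraries lay above the negative siRNA libraries. Cardiomyocyte markers (8 of 8) summed to 34610 to 59211, 42682 to 68907, 37590 to 68039 and 58045 to 75821 in the same order. In whole cultures such as these, fewer cells of a type and less RNA per cell cannot be told apart.

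Irf7, the inducible member of the pair that switches on interferon genes, showed the widest range. Its normalized counts were 197, 853 and 334 in the negative siRNA replicates 1, 2 and 3. With Yap siRNA they were 10676, 7019 and 4047. With Wwtr1 siRNA they were 13974, 8360 and 2988, and with both siRNAs 18272, 19059 and 17991. No knockdown library overlapped the negative siRNA libraries, and the double knockdown libraries lay above every single knockdown library and close to each other. The means (± SD, n = 3) were 461 ± 346, 7247 ± 3320, 8440 ± 5494 and 18440 ± 554 in that order of groups, so the spread was narrow in the double knockdown (3.00% of the mean) and wide in the single knockdowns (45.8% and 65.1%).

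**Figure D1:**
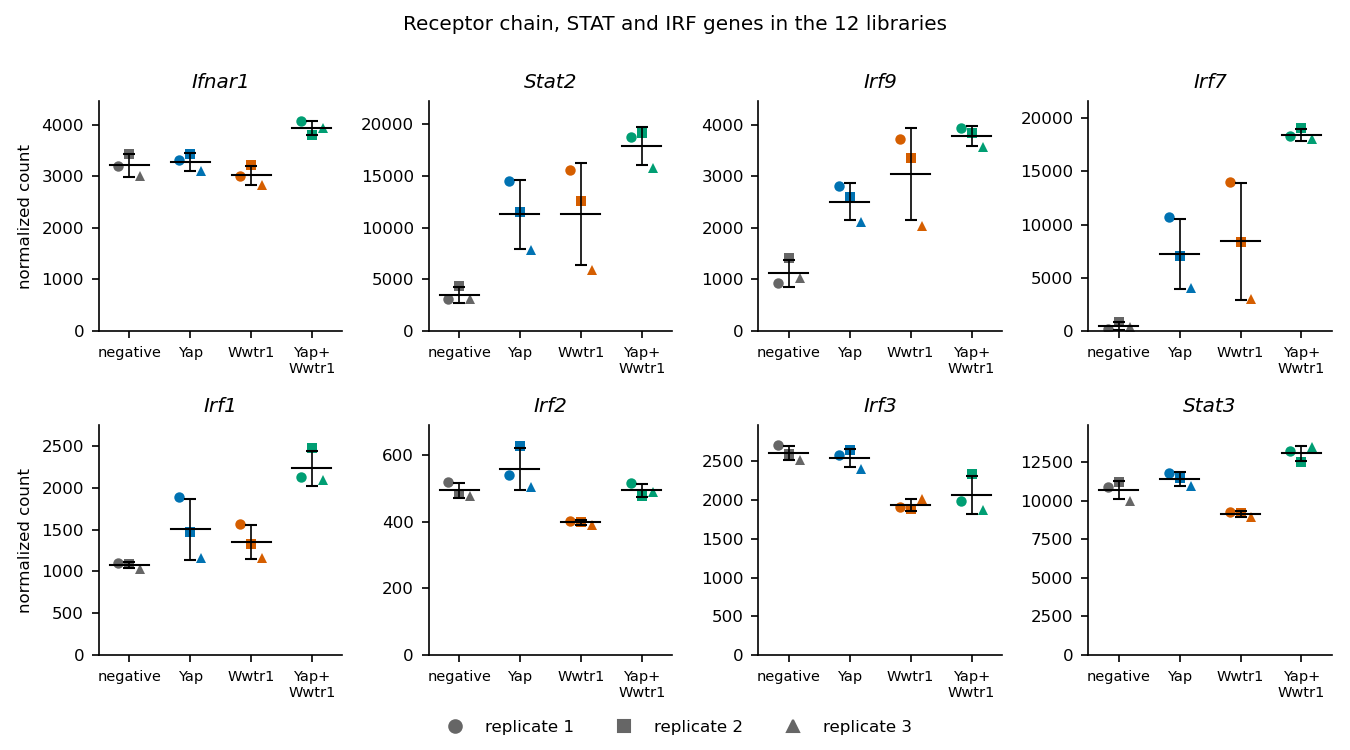
Normalized counts (vertical axes, each from 0) of the 8 measured genes in the negative, Yap, Wwtr1 and Yap+Wwtr1 siRNA groups. Points are libraries, with the marker shape giving the replicate number, and black lines and bars are the mean and SD of 3 libraries. Irf7, Stat2 and Irf9 lie higher in all 9 knockdown libraries than in the negative siRNA libraries, whereas the Irf2 and Stat3 libraries with Wwtr1 siRNA alone lie below those of the other 3 groups.

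Irf7 rose in all 3 knockdowns. The log2 fold change against negative siRNA was 4.13 (SE 0.57, limma with Benjamini-Hochberg adjusted p = 0.00393) with Yap siRNA, 4.20 (SE 0.57, adjusted p = 0.00130) with Wwtr1 siRNA and 5.59 (SE 0.57, adjusted p = 4.4e-05) with both. As ratios of mean counts these were 15.7-fold, 18.3-fold and 40.0-fold, and 27.3-fold, 31.8-fold and 69.5-fold without negative siRNA replicate 2. Without Wwtr1 siRNA replicate 3 the log2 fold change with Wwtr1 siRNA was 4.82. The log2 difference between Yap and Wwtr1 siRNA was -0.07 (95% confidence interval -1.32 to 1.19, adjusted p = 0.962). The double knockdown lay 1.46 log2 units above Yap siRNA (adjusted p = 0.116) and 1.39 above Wwtr1 siRNA (adjusted p = 0.111), so neither of these differences passed the test although the libraries did not overlap. The first passed with the compared groups alone (adjusted p = 0.0332) and the second without Wwtr1 siRNA replicate 1 (adjusted p = 0.0481). In double knockdown replicates 1, 2 and 3 the summed macrophage and leukocyte markers were 6834, 13659 and 45574. Their relation to Irf7 was not tested.

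Stat2 and Irf9, the partners in ISGF3, rose with Irf7. Stat2 stood at 3068, 4358 and 3070 in negative siRNA, 14498, 11535 and 7853 in Yap siRNA, 15535, 12596 and 5901 in Wwtr1 siRNA and 18742, 19149 and 15759 in double knockdown libraries. Irf9, the DNA-binding subunit, stood at 926, 1418 and 1022 in negative siRNA, 2815, 2601 and 2107 in Yap siRNA, 3727, 3360 and 2039 in Wwtr1 siRNA and 3934, 3842 and 3569 in double knockdown libraries. For both genes every knockdown library lay above every negative siRNA library, and for Irf9 the double knockdown overlapped Wwtr1 siRNA but not Yap siRNA.

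The log2 fold change of Stat2 was 1.67 (SE 0.31, adjusted p = 0.0138) with Yap siRNA, 1.60 (SE 0.31, adjusted p = 0.00825) with Wwtr1 siRNA and 2.37 (SE 0.31, adjusted p = 0.000190) with both. That of Irf9 was 1.17 (SE 0.21, adjusted p = 0.0119), 1.42 (SE 0.21, adjusted p = 0.00208) and 1.78 (SE 0.21, adjusted p = 9.9e-05). The call of each gene with Yap siRNA was lost without negative siRNA replicate 3, without Yap siRNA replicate 1 or without Yap siRNA replicate 2, with adjusted p-values of up to 0.0717 for Stat2 and 0.0627 for Irf9. Between Yap and Wwtr1 siRNA neither gene differed past the threshold (Stat2 0.06, 95% confidence interval -0.62 to 0.74; Irf9 -0.24, interval -0.70 to 0.22). The double knockdown exceeded Yap siRNA by 0.70 for Stat2 (adjusted p = 0.158) and 0.60 for Irf9 (adjusted p = 0.0804), which did not pass the test. That of Irf9 passed by DESeq2, with the compared groups alone, with the replicate block and without Wwtr1 siRNA replicate 3 (adjusted p down to 0.0250), and that of Stat2 passed without Wwtr1 siRNA replicate 3 (adjusted p = 0.0483). Against Wwtr1 siRNA the double knockdown lay 0.76 higher for Stat2 (adjusted p = 0.1069) and 0.36 higher for Irf9 (adjusted p = 0.2575). Of these, Stat2 passed with the replicate block and without Wwtr1 siRNA replicate 1 (adjusted p down to 0.0302).

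The high and low libraries of a group were often the same for Irf7, Irf9 and Stat2. In negative siRNA, replicate 2 held the highest count of Irf7, Irf9 and Stat2. In Yap siRNA and in Wwtr1 siRNA alike, replicate 1 held the highest and replicate 3 the lowest count of all 3. The ratio of each single knockdown library to the negative siRNA library of the same number ran from 8.23 to 54.2 for Irf7 in Yap siRNA and from 8.95 to 70.9 in Wwtr1 siRNA, and replicate 1 had the largest ratio of Irf7, Stat2 and Irf9 in both.

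**Figure D2:**
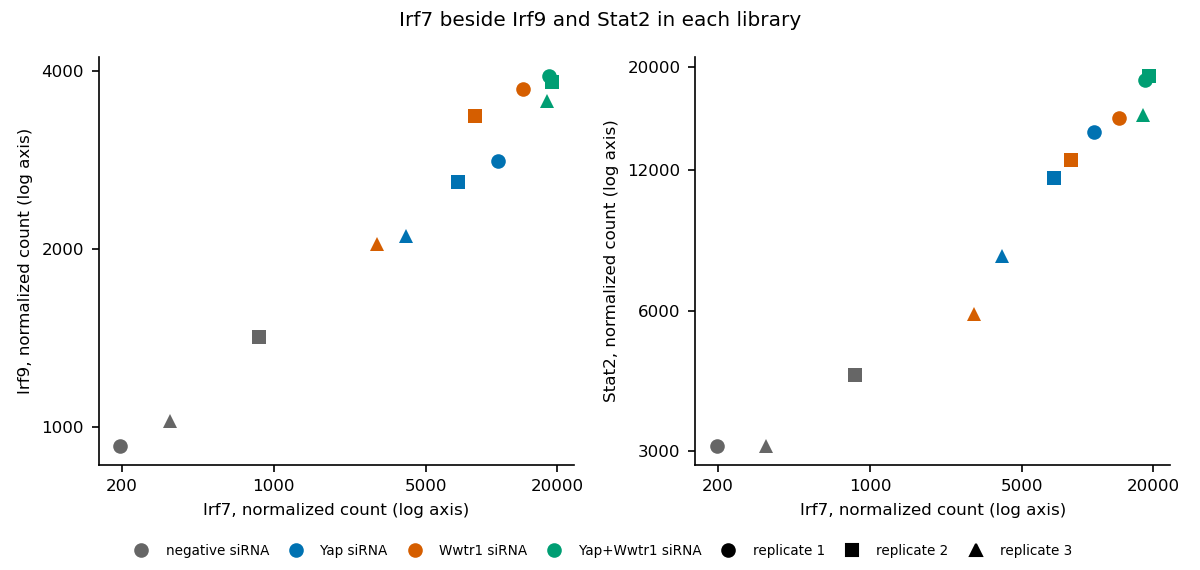
Irf7 (horizontal, normalized count, log axis) beside Irf9 (left) and Stat2 (right, both vertical, normalized count, log axes) in each of the 12 libraries, coloured by siRNA group and with the marker shape giving the replicate number. The 3 negative siRNA libraries sit at the lower left and the 3 double knockdown libraries at the upper right of both panels, and replicate 3 of each single knockdown (triangles) lies between the negative siRNA libraries and the other libraries of its group.

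The promoters of the 5 genes that passed the test in at least 1 single knockdown were read from RefSeq (build GRCr8), since Irf7, Irf9 and Stat2 moved together while Irf3 and Stat3 did not follow them. Each window runs 5′ to 3′ on the gene's strand from 250 bases before the annotated start to 50 bases from the start on. Capitals mark a match to the ISRE core GAAANNGAAA or to GAS TTCNNNGAA, the site that STAT dimers bind, where N is any base and both strands were searched.
Irf7, chr1:205799974-205800273, minus strand: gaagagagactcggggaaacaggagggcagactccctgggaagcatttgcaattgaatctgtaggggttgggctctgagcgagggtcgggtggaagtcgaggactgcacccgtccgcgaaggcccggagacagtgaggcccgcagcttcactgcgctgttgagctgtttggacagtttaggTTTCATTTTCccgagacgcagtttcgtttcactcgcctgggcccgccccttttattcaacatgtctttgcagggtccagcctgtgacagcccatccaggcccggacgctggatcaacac
Irf9, chr15:33065586-33065885, plus strand: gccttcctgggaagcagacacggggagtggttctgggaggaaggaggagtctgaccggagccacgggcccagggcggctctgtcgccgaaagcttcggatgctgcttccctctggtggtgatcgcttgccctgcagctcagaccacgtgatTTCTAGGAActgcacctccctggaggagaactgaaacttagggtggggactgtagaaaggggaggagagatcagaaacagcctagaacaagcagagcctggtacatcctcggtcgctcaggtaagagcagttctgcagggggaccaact
Stat2, chr7:1286840-1287139, plus strand: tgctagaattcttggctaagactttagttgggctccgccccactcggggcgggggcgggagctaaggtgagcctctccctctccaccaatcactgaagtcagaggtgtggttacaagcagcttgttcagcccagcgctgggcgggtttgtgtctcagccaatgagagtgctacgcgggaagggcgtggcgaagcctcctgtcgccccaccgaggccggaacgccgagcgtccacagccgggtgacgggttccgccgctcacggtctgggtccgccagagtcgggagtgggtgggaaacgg
Irf3, chr1:104616358-104616657, plus strand: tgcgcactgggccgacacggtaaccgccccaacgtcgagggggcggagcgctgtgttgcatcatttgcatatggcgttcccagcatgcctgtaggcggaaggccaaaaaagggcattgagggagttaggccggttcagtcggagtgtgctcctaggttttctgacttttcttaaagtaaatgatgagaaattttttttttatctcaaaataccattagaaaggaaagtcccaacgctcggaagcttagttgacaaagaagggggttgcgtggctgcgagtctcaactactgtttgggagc
Stat3, chr10:86363310-86363609, minus strand: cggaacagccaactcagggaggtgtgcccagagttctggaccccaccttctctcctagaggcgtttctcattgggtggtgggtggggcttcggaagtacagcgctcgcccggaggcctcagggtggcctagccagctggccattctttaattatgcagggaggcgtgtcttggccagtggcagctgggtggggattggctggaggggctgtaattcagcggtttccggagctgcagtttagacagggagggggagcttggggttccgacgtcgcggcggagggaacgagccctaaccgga
Of the 9 genes, 8 had a window, and Irf2 had none. The ISRE core was found in 1 of the 8 windows, that of Irf7, on the strand opposite to the gene and 60 to 69 bases before the start. Over all 33469 promoter windows 3.92% held it. GAS was found in the windows of Irf9 (91 to 99 bases before the start), Irf1 (134 to 142 bases before) and Ifnar2 (241 to 249 bases before), 3 of 8, beside 8.87% of all windows. No ISRE core and GAS match overlapped in these genes. The windows of Stat2, Irf3 and Stat3 held neither motif in these letters, and a match is a description of the sequence, not a measured site.

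Across the 12 libraries, the genes most like Irf7, out of 10102 whose mean was 100 normalized counts or more, were Dhx58 (Pearson r = 0.995 on log2 values), Oasl2 and Isg15, the last a ubiquitin-like antiviral protein. Irf9 was most like Ifih1 (0.997), a sensor of double-stranded RNA, then Oasl2 and Ifi44. Stat2 was most like Gbp4 (0.994), then Irgm and Parp14. These values share the group structure of the libraries. Computed on deviations from the group means, they were 0.958 for Irf7 with Dhx58, 0.972 for Irf9 with Ifih1 and 0.973 for Stat2 with Gbp4.

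Irf1, which activates genes of antigen presentation, changed less. Its normalized counts were 1096, 1093 and 1030 in negative siRNA, 1886, 1477 and 1157 in Yap siRNA, 1568, 1323 and 1167 in Wwtr1 siRNA and 2132, 2476 and 2095 in double knockdown libraries. Each knockdown library lay above the negative siRNA libraries, both single knockdowns overlapped each other, and the double knockdown stood above both.

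With both siRNAs Irf1 rose by 1.05 on the log2 scale (SE 0.16, adjusted p = 0.000423), and it lay above Yap siRNA by 0.59 (adjusted p = 0.0282) and above Wwtr1 siRNA by 0.73 (adjusted p = 0.00761). The difference from Yap siRNA lost its call without Yap siRNA replicate 2, Yap siRNA replicate 3, double knockdown replicate 1 or double knockdown replicate 2, with an adjusted p of up to 0.107. In the single knockdowns the log2 fold changes were 0.46 (adjusted p = 0.126) with Yap siRNA and 0.32 (adjusted p = 0.237) with Wwtr1 siRNA. With the replicate number as a block in the fit of the negative, Yap and Wwtr1 siRNA libraries, both passed (adjusted p = 0.0109 and 0.0435). The deviations of same-numbered libraries in these groups had correlations of 0.104 to 0.276 over genes. Irf1 was most like Slc35f6 (r = 0.984, and 0.925 on deviations from the group means), then Slamf8 and Trafd1.

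Irf2, which competes with Irf1, stood at 520, 485 and 479 in negative siRNA, 540, 628 and 505 in Yap siRNA, 404, 400 and 390 in Wwtr1 siRNA and 516, 477 and 491 in double knockdown libraries. The Wwtr1 siRNA libraries lay below those of the other 3 groups, and the double knockdown overlapped negative siRNA and Yap siRNA. The difference between Yap and Wwtr1 siRNA passed the test (0.48 on the log2 scale, SE 0.10, adjusted p = 0.0149), a call lost without Yap siRNA replicate 2, Wwtr1 siRNA replicate 2 or Wwtr1 siRNA replicate 3 (adjusted p of up to 0.0547). Against negative siRNA, the log2 differences were 0.17 (adjusted p = 0.400) with Yap siRNA and -0.31 (adjusted p = 0.0805) with Wwtr1 siRNA. With both siRNAs, the 95% confidence interval ran from -0.22 to 0.22 (adjusted p = 0.996). The double knockdown lay above Wwtr1 siRNA by 0.31 (adjusted p = 0.0491), a call that was lost without any 1 of the libraries other than Yap siRNA replicates 2 and 3, with an adjusted p of up to 0.133. It was also lost in 6 of 11 other alternatives (a pseudocount of 10, no filter, TMM or upper-quartile scaling, edgeR and the compared groups alone). The gene most like Irf2 was Acbd5 (r = 0.966, and 0.855 on deviations from the group means).

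Irf3, the IRF factor that cells hold ready before any stimulus, was lower wherever Wwtr1 siRNA had been given. It stood at 2707, 2598 and 2520 in negative siRNA, 2578, 2643 and 2409 in Yap siRNA, 1914, 1881 and 2021 in Wwtr1 siRNA and 1991, 2344 and 1876 in double knockdown libraries. None of the 6 libraries with Wwtr1 siRNA reached a library without it, and double knockdown replicate 2 came nearest. Irf3 fell by 0.43 on the log2 scale with Wwtr1 siRNA (SE 0.08, adjusted p = 0.00838) and by 0.34 with both siRNAs (SE 0.08, adjusted p = 0.00899). With Yap siRNA the difference was -0.04 (95% confidence interval -0.22 to 0.15, adjusted p = 0.862).

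Between the knockdowns, Irf3 was 0.39 higher with Yap than with Wwtr1 siRNA (adjusted p = 0.0156) and 0.30 lower in the double knockdown than with Yap siRNA (log2 difference -0.30, adjusted p = 0.0343). The last call was lost without any 1 of 6 libraries (Yap siRNA replicates 1, 2 and 3, Wwtr1 siRNA replicate 2 and double knockdown replicates 1 and 3), with an adjusted p of up to 0.0999. The call against Wwtr1 siRNA was lost without Yap siRNA replicates 1 or 2 or Wwtr1 siRNA replicate 2 (adjusted p of up to 0.0647). Irf3 was most like Pcyt2 (r = 0.929, and 0.612 on deviations from the group means), an enzyme of phospholipid synthesis.

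Stat3, which is activated by interleukin 6 and its relatives, moved in opposite directions with Wwtr1 siRNA alone and with both siRNAs. Its normalized counts were 10866, 11202 and 10021 in negative siRNA, 11811, 11450 and 10942 in Yap siRNA, 9267, 9234 and 8955 in Wwtr1 siRNA and 13248, 12546 and 13485 in double knockdown libraries. The Wwtr1 siRNA libraries were the lowest of the 12 and the double knockdown libraries the highest, while Yap siRNA overlapped negative siRNA.

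Stat3 fell by 0.22 on the log2 scale with Wwtr1 siRNA (SE 0.06, adjusted p = 0.0421), differed by 0.09 with Yap siRNA (SE 0.06, adjusted p = 0.447) and rose by 0.29 with both (SE 0.06, adjusted p = 0.00357). The fall with Wwtr1 siRNA was near the threshold. With 1 library left out its size ran from -0.27 to -0.19, and the call was lost without any 1 of 7 libraries (adjusted p of up to 0.139, negative siRNA replicates 1 and 2, Yap siRNA replicate 2, each Wwtr1 siRNA replicate and double knockdown replicate 1), without the trend and with the compared groups alone. The differences between the knockdowns were 0.32 between Yap and Wwtr1 siRNA (adjusted p = 0.00948) and 0.52 between the double knockdown and Wwtr1 siRNA (adjusted p = 0.000315), and neither call was lost when any 1 library was left out. Between the double knockdown and Yap siRNA the difference was 0.20 (adjusted p = 0.0503), which did not pass the test but passed in 4 of 11 other alternatives (a pseudocount of 10, a mean of at least 100, DESeq2 and the replicate block). The gene most like Stat3 was Steap4 (r = 0.959, and 0.763 on deviations from the group means), a metalloreductase.

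Ifnar1, the receptor chain, changed in the double knockdown. It stood at 3191, 3440 and 3006 in negative siRNA, 3306, 3438 and 3098 in Yap siRNA, 3001, 3213 and 2837 in Wwtr1 siRNA and 4066, 3800 and 3933 in double knockdown libraries. The other 3 groups overlapped each other, and the double knockdown libraries lay above all of them. With both siRNAs Ifnar1 rose by 0.29 (SE 0.07, adjusted p = 0.00933), while the log2 differences were 0.03 (95% confidence interval -0.13 to 0.19) with Yap siRNA and -0.09 (interval -0.25 to 0.07) with Wwtr1 siRNA. The double knockdown exceeded Wwtr1 siRNA by 0.38 (adjusted p = 0.00409) and Yap siRNA by 0.26 (adjusted p = 0.0349), the second call being lost without any 1 of 5 libraries (Yap siRNA replicates 1 and 3 and each double knockdown replicate, adjusted p of up to 0.137). Ifnar1 was most like Socs2 (r = 0.958, and 0.902 on deviations from the group means), an inhibitor of cytokine signalling, then Igfbp5 and Plekhm1.

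**Figure D3:**
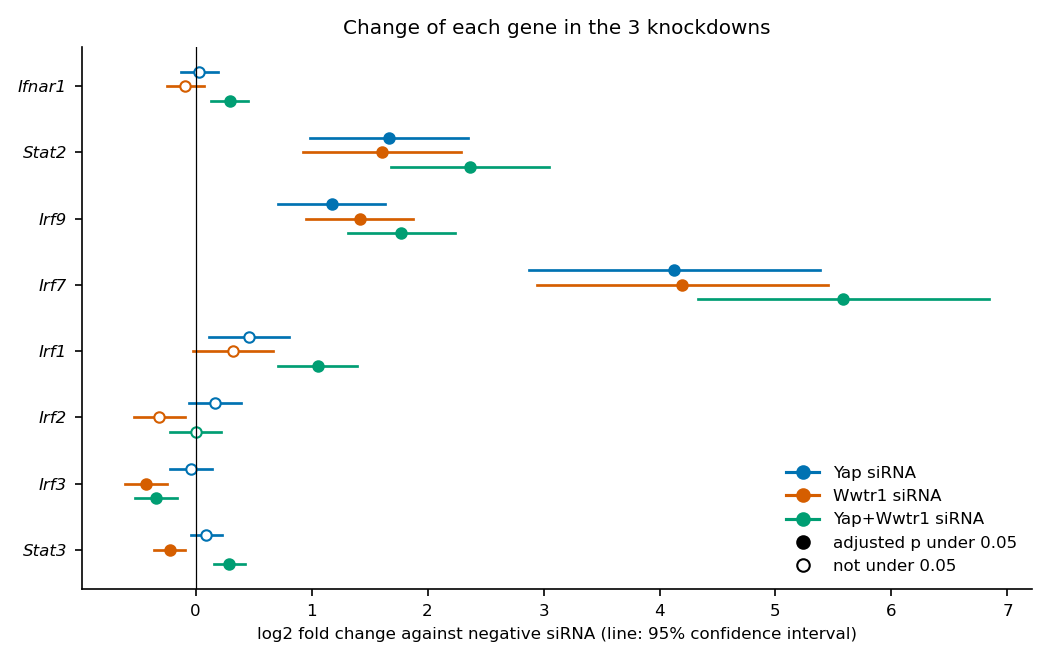
Log2 fold change against negative siRNA (horizontal axis) of the 8 measured genes with Yap, Wwtr1 or both siRNAs. Lines are 95% confidence intervals from limma over 12 libraries, and filled points passed an adjusted p of 0.05. Stat2, Irf9 and Irf7 are filled and to the right of 0 in all 3 knockdowns, and Irf3 is filled and to the left of 0 with Wwtr1 siRNA and with both.

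Counted together, 3 of the 8 genes passed the test with Yap siRNA (Irf7, Stat2 and Irf9, all higher), beside 4.80% of the 11871 genes tested. With Wwtr1 siRNA 5 passed (the same 3 higher, Irf3 and Stat3 lower), beside 8.96% of all genes. With both siRNAs 7 passed (6 higher and Irf3 lower, all but Irf2), beside 32.8% of all genes. The median log2 fold change of the 8 genes was 0.31, 0.12 and 0.67 in these comparisons, and that of all genes lay within 0.01 of 0 in each. The 3 comparisons share the negative siRNA libraries.

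Between Yap and Wwtr1 siRNA 3 genes differed (Irf2, Irf3 and Stat3, each higher with Yap siRNA), beside 8.79% of all genes. The double knockdown differed from Yap siRNA for 3 genes (Irf1 and Ifnar1 higher, Irf3 lower), beside 13.8% of all genes, and from Wwtr1 siRNA for 4 (Irf1, Irf2, Stat3 and Ifnar1 higher), beside 19.9%. No gene of the 8 passed in opposite directions with Yap and with Wwtr1 siRNA.

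The interaction compares the effect of both siRNAs with the sum of the single effects on the log2 scale. For Stat3 it was 0.42 (SE 0.09, adjusted p = 0.0450), the 1 call among the 8 genes, beside 1.03% of all genes. Stat3 had fallen with Wwtr1 siRNA, had not passed the test with Yap siRNA and had risen with both. This call was lost by edgeR and without any 1 of the libraries other than negative siRNA replicate 3, with an adjusted p of up to 0.125. For Irf7 the interaction was -2.74 (SE 0.81, adjusted p = 0.138), for Stat2 -0.90 (SE 0.44, adjusted p = 0.400), for Irf9 -0.81 (SE 0.30, adjusted p = 0.235) and for Ifnar1 0.35 (SE 0.10, adjusted p = 0.135). DESeq2 called the interaction of Irf7 (adjusted p = 0.0443) and of Ifnar1 (adjusted p = 0.0484).

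On the scale of counts the gains can be set side by side, with no test. Irf7 gained 6786 normalized counts over the negative siRNA mean with Yap siRNA, 7979 with Wwtr1 siRNA and 17979 with both, 1.22 times the sum of the single gains. Stat2 gained 7797, 7845 and 14385, which was 0.920 times the sum, and Irf9 gained 1386, 1920 and 2660, which was 0.804 times the sum. Irf1 gained 434, 279 and 1161, 1.63 times the sum. For Irf7, Stat2 and Irf9 a log2 interaction below 0 that did not pass the test by limma thus stood beside count gains of 0.804 to 1.22 times the sum.

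The other genes of the pathway were taken from lists of known roles and counted. Of 85 listed genes 69 were in the count table and 68 were tested. With Yap siRNA 17 of the 68 passed the test as higher and 1 as lower, with Wwtr1 siRNA 18 and 2, and with both siRNAs 33 and 3. Of all genes tested 4.80%, 8.96% and 32.8% passed in these comparisons, in either direction. Of the pathway genes named below, leaving out 1 library at a time cost a call with Yap siRNA to Ifngr1, Socs1, Bst2, Gbp2, Psmb8 and Tap1 (adjusted p of up to 0.0562, 0.0973, 0.0506, 0.103, 0.155 and 0.115). Further targets of ISGF3 that lost a call with Yap siRNA are given with their list. With Wwtr1 siRNA it cost a call to Ifngr1, Il10rb, Socs1, Psmb8, Mavs and Lif (up to 0.0801, 0.117, 0.0721, 0.0563, 0.0604 and 0.121), and with both siRNAs to Cish, Ptpn11 and Traf3 (up to 0.0595, 0.142 and 0.0753). The interferon genes themselves were not analysed here. Genes beyond the 3 with the smallest adjusted p per list are named below because they passed the test, after their values were seen.

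Targets of ISGF3 moved with Stat2, Irf9 and Irf7. All 10 tested rose in each of the 3 knockdowns, and their median change in log2 units was 3.37 after Yap siRNA, 3.73 after Wwtr1 siRNA and 4.95 after both. Rsad2 (viperin, an antiviral enzyme) rose by 7.20 with both siRNAs (adjusted p = 6.4e-05), from 6.55 without negative siRNA replicate 3 to 8.02 without negative siRNA replicate 2. Bst2 (tetherin, which holds virus particles at the cell surface) rose by 5.15 (adjusted p = 4.4e-05) and Ifi27 by 2.00 (adjusted p = 7.0e-05). With Yap siRNA the calls of Isg15, Ifit2, Ifit3, Mx1, Bst2 and Cmpk2 were lost when 1 library was left out (adjusted p of up to 0.108). None of the 10 differed between Yap and Wwtr1 siRNA by limma, and none had an unadjusted p under 0.05 or passed by edgeR or DESeq2. Of the 6 that had a promoter window, 4 held the ISRE core in it (Bst2, Ifi27, Ifit3 and Rsad2), beside 3.02% of the 9390 tested genes with a window.

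**Figure D4:**
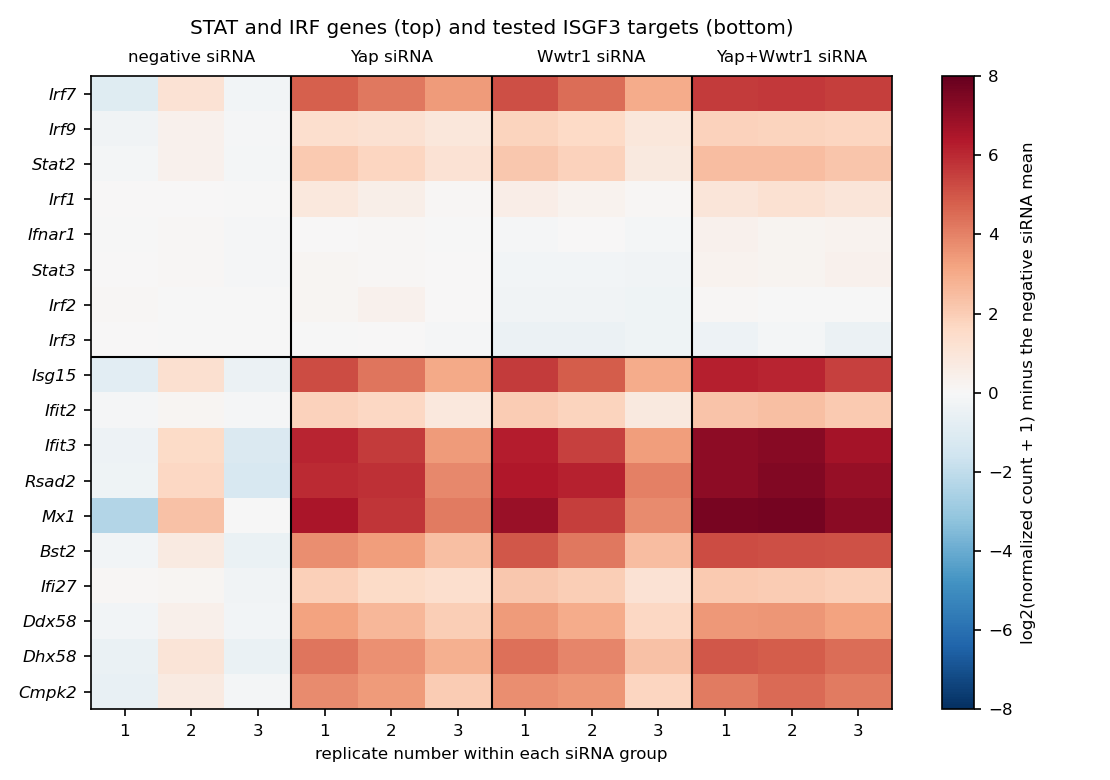
Log2(normalized count + 1) minus the negative siRNA mean (colour, from blue below to red above) for the 8 measured genes (top) and the 10 tested targets of ISGF3 (bottom) in the 12 libraries, ordered by siRNA group and replicate number (horizontal axis). Irf7, Irf9, Stat2 and all 10 targets are on the red side in the 9 knockdown libraries, palest in replicate 3 of each single knockdown. Stat2 and Irf9 are only faint in Wwtr1 siRNA replicate 3. Ifnar1, Stat3, Irf2 and Irf3 stay near white.

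Targets of Irf1 also rose, 4 of 6 with each single knockdown (Cxcl10, Gbp2, Psmb8 and Tap1) and 5 with both (those and Psmb9). Beside these, 4.80% of all genes passed with Yap siRNA, 8.96% with Wwtr1 siRNA and 32.8% with both. Cxcl10, a chemokine that draws T cells, rose by 6.35 with both siRNAs (adjusted p = 4.0e-05), the GTPase Gbp2 by 5.43 (adjusted p = 6.4e-05) and the immunoproteasome subunit Psmb8 by 3.23 (adjusted p = 0.000156). Several of these genes are also known targets of ISGF3. Of the 6, 5 held the ISRE core in the promoter window, beside 3.02% of the tested genes with a window.

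Of the other STAT factors, Stat5a rose with both siRNAs (0.54, adjusted p = 0.00431), and for Stat5b the value was 0.20 (adjusted p = 0.0838). Of the other IRF factors and IRF2 binding proteins 0 of 6 passed in any of the 3 comparisons by limma or edgeR. With both siRNAs 2 had an unadjusted p under 0.05 and 2 passed by DESeq2, whereas in the single knockdowns none did either. The log2 values with both siRNAs were 0.21 for Irf2bp1 and 0.36 for Irf5 (adjusted p = 0.0508 and 0.0706).

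**Figure D5:**
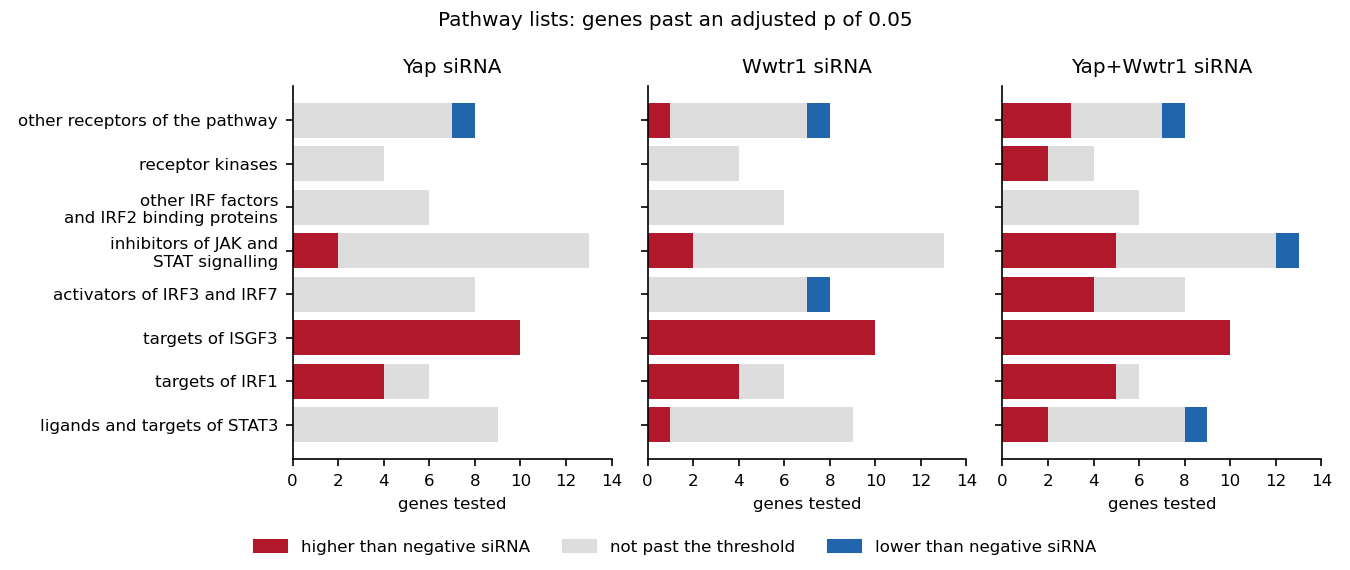
Number of genes tested (horizontal axis) in 8 of the 9 pathway lists that held tested genes (the other STAT factors are not drawn) with Yap, Wwtr1 or both siRNAs. Bars are split into those higher than negative siRNA, those not past an adjusted p of 0.05 and those lower. All 10 targets of ISGF3 are higher in each panel, and the receptor, kinase, inhibitor and activator lists gain higher genes with both siRNAs. The share of all genes tested that passed, in either direction, was 4.80% with Yap siRNA, 8.96% with Wwtr1 siRNA and 32.8% with both.

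Inhibitors of the pathway included strongly raised genes. Usp18, which removes Isg15 from proteins and blocks the receptor, rose by 5.35 with Yap siRNA (adjusted p = 0.00767), 5.69 with Wwtr1 siRNA (adjusted p = 0.00230) and 6.67 with both (adjusted p = 0.000172). Its normalized counts in negative siRNA were 16.4, 236 and 18.6, and the log2 fold changes were 6.58, 6.91 and 7.89 without replicate 2 of that group and 4.70, 5.03 and 6.01 without replicate 1. Socs1, which inhibits the receptor kinases, rose by 1.54, 1.41 and 2.42 (adjusted p = 0.0205, 0.0165 and 0.000176). With both siRNAs the phosphatase gene Ptpn1 (0.88, adjusted p = 3.2e-05), Cish (0.78) and Socs2 (0.76) rose as well and Ptpn11 fell by 0.23, which made 5 of 13 higher and 1 lower, beside the 32.8% of all genes.

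Receptor genes were split in direction. Ifngr1, a chain of the interferon gamma receptor, fell by 0.47 with Yap siRNA (adjusted p = 0.0119), by 0.37 with Wwtr1 siRNA (adjusted p = 0.0175) and by 0.61 with both (adjusted p = 0.000251). Il10rb rose with Wwtr1 siRNA (0.43, adjusted p = 0.0290) and with both (0.57, adjusted p = 0.00205), and with both siRNAs Osmr (0.78, adjusted p = 0.00139) and Lifr (1.29) rose too, receptors that signal to Stat3. Of the 4 receptor kinases Jak2 (0.91, adjusted p = 0.00127) and Jak3 (0.69, adjusted p = 0.00156) rose with both siRNAs, and Jak1 stood at 0.13 (adjusted p = 0.210). These calls stand beside 32.8% of all genes. None of the kinases passed by limma in a single knockdown, none had an unadjusted p under 0.05 there, and none passed by edgeR or DESeq2.

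The activators of Irf3 and Irf7 passed in the double knockdown for 4 of 8 genes, all higher, beside 32.8% of all genes. The adaptor Myd88 rose by 0.62 (adjusted p = 0.00173), the DNA sensing adaptor Sting1 by 0.57 (adjusted p = 0.00758) and the kinase Ikbke by 0.71 (adjusted p = 0.00793), and Traf3 by 0.28. With Wwtr1 siRNA 1 of the 8 passed, as Mavs fell by 0.38. With Yap siRNA 0 of 8 passed by limma, edgeR or DESeq2, and 3 had an unadjusted p under 0.05 by limma.

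Ligands and targets of Stat3 gave 2 rises and 1 fall of 9 with both siRNAs, a share near the 32.8% of all genes. Bcl3 rose by 1.03 (adjusted p = 0.00780) and Il6 by 3.99, whereas Myc fell by 0.64 (adjusted p = 0.00434). Il6 was low in negative siRNA (0, 19.0 and 16.5 normalized counts, against 146, 97.0 and 97.4 with both siRNAs), and its log2 change was 2.58 without negative siRNA replicate 1 and 4.75 without replicate 2 of that group. Ccl2, a chemokine for monocytes, stood at 0.95 (adjusted p = 0.104). With Wwtr1 siRNA Lif rose by 0.92, and with Yap siRNA 0 of 9 passed by limma, edgeR or DESeq2, with 1 at an unadjusted p under 0.05 by limma.

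Markers of other cells were counted in the double knockdown beside the 32.8% of all genes called there. Of the endothelial markers 4 of 8 were higher (Cdh5, Kdr, Tek and Vwf) and of the cardiomyocyte markers 2 of 8 (Myh6 and Tnni3), while 1 of 9 macrophage and leukocyte markers was lower (Cx3cr1). The endothelial markers Emcn and Cldn5 were at 0 in 7 and 4 of the 12 libraries. In the single knockdowns, where Irf7, Stat2 and Irf9 had risen, 1 of 8 endothelial markers was higher with Wwtr1 siRNA (Tek, 0.71, adjusted p = 0.0299, and up to 0.118 with 1 library left out) by limma, edgeR and DESeq2 alike, and with Yap siRNA 0 of 8 passed by limma or edgeR, 1 by DESeq2 and 1 at an unadjusted p under 0.05 by limma. There 0 of 9 macrophage and leukocyte markers and 0 of 8 cardiomyocyte markers passed by limma or edgeR. With Wwtr1 siRNA, however, 0 of the 9 had a log2 fold change above 0 (median -0.66). DESeq2 called 1 of the 9 macrophage and leukocyte markers in each single knockdown and 0 of the 8 cardiomyocyte markers, and an unadjusted p under 0.05 by limma was reached by 0 of the 9 with Yap siRNA, by 1 of the 9 with Wwtr1 siRNA and by 0 of the 8. Of the fibroblast markers 4 of 11 were higher in the double knockdown (Dcn, Pdgfra, Lum and Postn) and 3 lower (Col1a2, Tcf21 and Vim). In the single knockdowns 1 of the 11 was higher with Yap siRNA (Postn, 0.73, adjusted p of up to 0.123 with 1 library left out). With Wwtr1 siRNA 0 passed by limma or edgeR and 2 by DESeq2. With 1 library left out, calls of Cdh5, Vwf, Tnni3, Lum, Col1a2 and Tcf21 in the double knockdown were lost (adjusted p of up to 0.0865, 0.0646, 0.116, 0.0839, 0.116 and 0.0814). The part of these cells in the levels of the 8 genes was not tested.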

How the data were processed

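RNA was sequenced from 12 cultures of rat cardiac fibroblasts, whose titles gave the group and the replicate number. Per the labels and methods, the authors trimmed reads (Trim Galore 0.6.5), aligned them to rn6 (HISAT2), estimated abundance with StringTie and normalized with DESeq2. The deposited signal values are counts divided by a size factor per library. Within 0.001 reads, 100% of 147252 values were whole multiples of a step, so reads were recovered. Whether a unit is a read or a count derived from coverage, and whether counting used strand, is not given in the sources used here. The authors' tables of fold changes and p-values were not used.

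The main test was limma 3.58.1 (R 4.3.3, with trend) on log2(normalized count + 1), two-sided, over all 12 libraries and the 11871 genes with a mean of at least 10. A fold change on this scale understates the change of low genes. Benjamini-Hochberg adjustment ran over all genes within each of 7 comparisons (threshold 0.05). edgeR 4.0.16 and DESeq2 1.42.0 on recovered reads, other pseudocounts, filters and scalings, the compared groups alone, no trend, a replicate block and leaving out each library were alternatives. Same-numbered libraries of negative, Yap and Wwtr1 siRNA had correlated deviations from the group means (9 correlations of 0.104 to 0.276 over genes). Those with the double knockdown ran from -0.127 to 0.180, which overlaps that range. By a limit of 0.1 the pairing was taken to hold for the first 3 groups. Libraries of different numbers were not compared, so the pairing itself was not tested. The block was fitted both to those groups and to all 12 libraries. The limma, edgeR and DESeq2 fits were checked on simulated data with changes planted in Yap siRNA alone. Only the single knockdowns against negative siRNA were scored there. The other comparisons, the replicate block and the compared groups alone were not checked in this way. The genes and lists were chosen with earlier results of these data known. Named beyond the 8 genes were the siRNA targets, up to 3 genes per pathway list with the smallest adjusted p in the double knockdown (mean of at least 100), and the 3 genes of highest Pearson r with each. Symbols matched RefSeq for 99.0% of genes. Promoters came from RefSeq GRCr8, whose start sites may differ from those of rn6. Protein sequences were not used here. Single values of 2 listed genes are not reported here.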

Additional observations from a re-analysis of the deposited data

Results flagged for a closer look

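The effect of Wwtr1 siRNA on Stat3 differed with the presence of Yap siRNA, which was tested as the interaction of both siRNAs. On the log2 scale the interaction was 0.4232 (SE 0.09, limma adjusted p = 0.0450). Stat3 was lower with Wwtr1 siRNA than with negative siRNA (8955 to 9267 against 10021 to 11202 normalized counts) and higher with both siRNAs than with Yap siRNA (12546 to 13485 against 10942 to 11811), so that no libraries overlapped in either contrast. The second difference was 0.20 on the log2 scale and did not pass the test (adjusted p = 0.0503), while it passed in 4 of 11 other alternatives and without negative siRNA replicate 3 (adjusted p down to 0.0123). The call of the interaction was lost by edgeR, without the trend, and without any 1 of the libraries other than negative siRNA replicate 3 (adjusted p of up to 0.125), and its value ran from 0.39 to 0.47 with 1 library left out.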

How the results depend on the processing

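Several calls lay near the threshold. Leaving out each library in turn, the number of the 8 genes called ran from 1 to 4 with Yap siRNA, 1 to 3 between Yap and Wwtr1 siRNA, 0 to 5 between the double knockdown and Yap siRNA, and 0 to 1 for the interaction. Between the double knockdown and Yap siRNA, 5 genes were called by DESeq2, 5 with the replicate block over all 12 libraries and 0 without the trend. The interaction had 0 calls by edgeR, 3 by DESeq2 and 0 without the trend. In the paired fit of the first 3 groups Irf1 gained its calls with Yap and with Wwtr1 siRNA (adjusted p = 0.0109 and 0.0435), and no other call there changed. The cause of these changes was not tested. Differences near 0 turned in sign. For Stat2 between Yap and Wwtr1 siRNA the value was -0.0106 by edgeR, -0.00614 by DESeq2 and -0.353 to 0.345 with a library left out. For Irf2 in the double knockdown it was -0.0118 with TMM scaling, -0.0381 with upper-quartile scaling, -0.00997 by edgeR and -0.0302 to 0.0378 with a library left out. With a library left out, values ran from -0.0382 to 0.314 for Irf1 and from -0.686 to 0.427 for Irf7 between Yap and Wwtr1 siRNA, from -0.0652 to 0.00170 for Irf3 and from -0.0155 to 0.0817 for Ifnar1 with Yap siRNA, and from -0.00362 to 0.157 for Irf3 between the double knockdown and Wwtr1 siRNA. Over all alternatives the genes called, out of all tested, ran from 111 to 1918 (570 in the main test) with Yap siRNA, 548 to 2567 (1064) with Wwtr1 siRNA, 2745 to 4205 (3888) with both, 434 to 2708 (1044) between Yap and Wwtr1 siRNA, 758 to 2198 (1637) and 1288 to 2887 (2359) between the double knockdown and each in turn, and 31 to 503 (122) for the interaction. The percent of promoters with the ISRE core was 3.41 and with GAS 7.67 when only the 250 bases before the start were read.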

Other observations

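Within each single knockdown, the library with the least mRNA of the siRNA target held the most Irf7. In Yap siRNA replicates 1, 2 and 3, Yap1 stood at 532, 576 and 625 normalized counts and Irf7 at 10676, 7019 and 4047. In Wwtr1 siRNA, Wwtr1 stood at 524, 550 and 637 and Irf7 at 13974, 8360 and 2988. In the double knockdown, Irf7 stood at 18272, 19059 and 17991 while Yap1 stood at 713, 739 and 1474 and Wwtr1 at 818, 731 and 1056. With 3 libraries a group this relation was not tested, and the replicates also differ in litter.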
